A study of Mus musculus with 23 samples.

Results

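The GIRK, BK and SK potassium channels of the hippocampus were described by 9 subunit genes in 23 mice. The members were the rows of the expression table with the gene symbols Kcnj3, Kcnj5, Kcnj6, Kcnj9, Kcnma1, Kcnmb4, Kcnn1, Kcnn2 and Kcnn3, 9 of 19733 genes, and all 9 were found. They were selected by name, as subunits of channels known to respond to ethanol, and not by their values. RNA sequencing of hippocampal tissue covered 9 mice of the Ctrl group, 7 of the EtOH group and 7 of the EtOH-UA group. All were male wild-type C57BL/6J mice acquired at 6 weeks of age and fed a liquid AIN93M diet for 16 weeks, followed by 1 week of behavioral tests. Ctrl mice received the control diet and gavage of the vehicle, sodium carboxymethylcellulose (CMC-Na). EtOH mice received the ethanol diet and the vehicle. EtOH-UA mice received the ethanol diet and urolithin A (UA), a metabolite that gut bacteria make from ellagitannins, at 200 mg/kg/day in the same vehicle. The diets were pair-fed, 10 mice were assigned to each group, and 1 library was taken to stand for 1 mouse. The tissue holds all cell types of the dissected hippocampus, so fewer cells of a type and less RNA per cell cannot be told apart.

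GIRK channels are inwardly rectifying potassium channels opened by the beta-gamma subunits of inhibitory G proteins. They carry the slow inhibitory current that follows GABA-B, adenosine A1 and serotonin 1A receptor activation, and ethanol opens them directly through a pocket in the channel protein. BK channels are opened by calcium and by depolarization together, shape the action potential and transmitter release, and are sensitive to ethanol in a way that depends on their auxiliary beta subunits. SK channels are opened by calcium bound to calmodulin, carry the medium afterhyperpolarization and limit NMDA receptor responses in dendritic spines. GIRK and SK channels lower the excitability of pyramidal neurons, and all of these channels have been studied in models of alcohol exposure.

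Levels are in FPKM (fragments counted per kilobase of transcript and scaled to the size of each library), which is a level comparable between genes. The summed FPKM of a library ranged from 330456 to 361354 in Ctrl mice, from 327896 to 366930 in EtOH mice and from 333801 to 404609 in EtOH-UA mice. In 6 libraries, of 3 Ctrl, 1 EtOH and 2 EtOH-UA mice, the sum was over 350000, and these libraries stood apart from the other 17. Of the 27 fold changes of the members below (9 genes in 3 comparisons), none of which passed, 12 turned direction without these 6 libraries, 12 kept it but moved by over 1.5 times and 3 moved by less. The defining markers of hippocampal neurons were present in all libraries, with Snap25 at a mean of 1102 FPKM, Slc17a7 at 429 FPKM and the dentate granule marker C1ql2 at 31.6 FPKM. The choroid plexus markers differed most between libraries: their summed level ran from 7.88 to 2977 FPKM in Ctrl mice, from 70.6 to 5763 FPKM in EtOH mice and from 16.02 to 7823 FPKM in EtOH-UA mice. From the step between the lowest values of 59 genes with 1 transcript, 1 FPKM corresponded to a median of 16.98 fragments per kilobase. The members then rested on about 3367 fragments per mouse for Kcnj3 and about 10.2 for Kcnj5, with the other 7 between these values.

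Kcnj3 had the highest level of the 9 genes. It encodes GIRK1, the subunit that joins the others in most neuronal GIRK channels, and lies at chr2:55411798-55598145 (RefSeq, GRCm38.p6). Its level ranged from 41.4 to 57.1 FPKM in Ctrl mice (median 47.1), from 39.7 to 52.6 FPKM in EtOH mice (median 47.8) and from 40.0 to 59.6 FPKM in EtOH-UA mice (median 52.3). The ranges overlapped in all 3 comparisons, and the highest value of the series was 1.503 times the lowest. Kcnj9 encodes GIRK3, which directs channels to endosomes and lowers their surface number, and lies at chr1:172320508-172329322. Its level ranged from 26.4 to 40.1 FPKM in Ctrl mice (median 33.7), from 27.6 to 35.4 FPKM in EtOH mice (median 30.5) and from 26.3 to 34.0 FPKM in EtOH-UA mice (median 30.5). Only 1 of 7 EtOH mice and 1 of 7 EtOH-UA mice were above the Ctrl median, though the ranges overlapped. Kcnj6 encodes GIRK2, the subunit that can form channels alone and carries the alcohol pocket, and lies at chr16:94744980-94997696. Its level ranged from 14.1 to 24.5 FPKM in Ctrl mice (median 20.3), from 17.9 to 22.5 FPKM in EtOH mice (median 19.5) and from 12.5 to 24.6 FPKM in EtOH-UA mice (median 21.6). The values of the EtOH mice lay within those of both other groups.

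Kcnj5 encodes GIRK4, the partner of GIRK1 in the atrium of the heart, and lies at chr9:32314706-32344380. It was listed between 0.09 and 0.24 FPKM in Ctrl mice (median 0.19), between 0.09 and 0.33 FPKM in EtOH mice (median 0.18) and between 0.14 and 0.46 FPKM in EtOH-UA mice (median 0.18). At about 10.2 fragments per mouse the counting error alone is near 31.3%. The coefficient of variation was 29.4% in Ctrl mice, 44.3% in EtOH mice and 49.3% in EtOH-UA mice. A change of this gene was thus hardly detectable at this depth. Of the summed level of the 4 GIRK genes, Kcnj3 made up 48.6% ± 2.96 (SD, n = 23), Kcnj9 31.7% ± 3.79, Kcnj6 19.5% ± 2.67 and Kcnj5 0.197% ± 0.1001. Over the 23 mice the lowest Kcnj3 share was 41.3% and the highest Kcnj5 share was 0.581%.

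Kcnma1 encodes the pore-forming alpha subunit of the BK channel and lies at chr14:23292288-24005110. Its level ranged from 29.3 to 38.7 FPKM in Ctrl mice (median 32.9), from 25.4 to 42.5 FPKM in EtOH mice (median 38.6) and from 22.5 to 38.4 FPKM in EtOH-UA mice (median 33.3). All 7 EtOH-UA mice were below the EtOH median, but the ranges overlapped. Kcnmb4 encodes beta-4, the neuronal auxiliary subunit that slows BK gating and limits its acute tolerance to ethanol, and lies at chr10:116417861-116473859. Its level ranged from 27.6 to 40.2 FPKM in Ctrl mice (median 32.6), from 26.3 to 38.2 FPKM in EtOH mice (median 29.6) and from 25.6 to 43.3 FPKM in EtOH-UA mice (median 29.7). In the EtOH group, 1 of 7 mice was above the Ctrl median. The other beta subunits were far lower, with Kcnmb2 at a mean of 1.68 FPKM, Kcnmb1 at 0.292 FPKM and Kcnmb3 at 0.117 FPKM over the 23 mice.

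Among the SK genes, Kcnn2 was the most abundant. It encodes SK2, the subunit of dendritic spines and of CA1 pyramidal neurons, and made up 76.6% ± 2.12 (SD, n = 23) of the summed SK level. Its level ranged from 24.3 to 29.4 FPKM in Ctrl mice (median 26.3), from 23.8 to 28.0 FPKM in EtOH mice (median 26.8) and from 17.8 to 31.1 FPKM in EtOH-UA mice (median 26.7). Both the lowest and the highest value of the series were in EtOH-UA mice, and the coefficient of variation was 16.3% there, 7.00% in Ctrl mice and 5.88% in EtOH mice. Without a test of the spread, these values are a description. Kcnn1, for SK1 (chr8:70843158-70865691), made up 15.1% ± 2.17 and ranged from 4.53 to 6.32 FPKM in Ctrl mice (median 4.95), from 4.56 to 5.94 FPKM in EtOH mice (median 5.06) and from 4.50 to 6.59 FPKM in EtOH-UA mice (median 4.89). Kcnn3, for SK3 (chr3:89520164-89672494), made up 8.23% ± 1.69 and ranged from 2.22 to 3.91 FPKM in Ctrl mice (median 2.69), from 2.0 to 3.54 FPKM in EtOH mice (median 3.06) and from 1.47 to 3.56 FPKM in EtOH-UA mice (median 2.77). The groups overlapped for both genes.

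**Figure D1:**
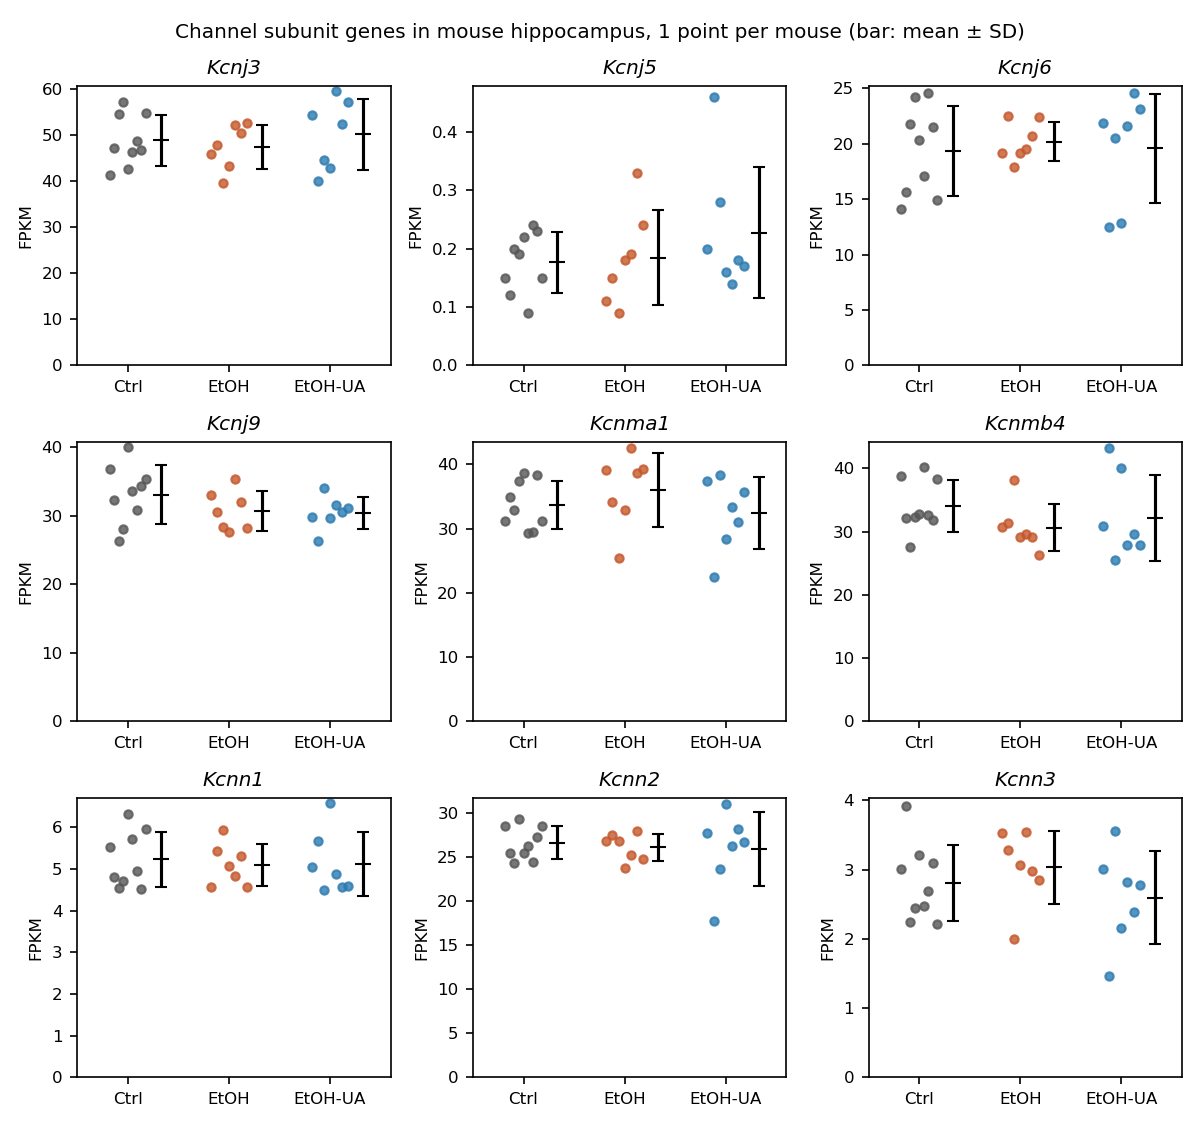
FPKM of the 9 channel genes (vertical axes from 0) in Ctrl, EtOH and EtOH-UA mice. Each point is 1 mouse, and the black bar beside a group is its mean ± SD. The 3 groups overlap in every panel, and Kcnj5 stays below 0.5 FPKM.

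Ordered by mean level over all mice, Kcnj3 (48.7 FPKM) was followed by Kcnma1 (34.0), Kcnmb4 (32.5), Kcnj9 (31.6), Kcnn2 (26.3), Kcnj6 (19.7), Kcnn1 (5.16), Kcnn3 (2.81) and Kcnj5 (0.194). Neighbours in this order were compared within mice by sign-flip permutation tests of the log2 ratio, 8 in number. Kcnma1 and Kcnmb4 did not differ beyond their spread (Kcnma1 higher in 16 of 23 mice, adjusted permutation p = 0.501), nor did Kcnmb4 and Kcnj9 (Kcnmb4 higher in 12 of 23, adjusted permutation p = 0.547). The other 6 steps passed at an adjusted permutation p of 1.33e-05, from the smallest p that 100000 permutations can give (1e-05). In these steps the higher gene was above the lower one in 21 to 23 of 23 mice.

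The first comparison, EtOH against Ctrl mice, asks which genes changed with the ethanol diet. None of the 9 channel genes passed the test. With limma, 0 of 9 had an adjusted p under 0.05 and 0 had an unadjusted p under 0.05, beside 0% and 3.05% of all 15986 genes tested. The log2 fold changes ran from -0.15 to 0.11, with a median of -0.03 beside a median of -0.003 for all genes, and 4 of 9 were above 0, where 48.6% of all genes were. The smallest exact permutation p was that of Kcnmb4, at 0.0971, with means of 34.1 FPKM ± 4.10 (SD, n = 9) on the control diet and 30.7 FPKM ± 3.67 (SD, n = 7) on the ethanol diet. Its log2 fold change was -0.15 ± 0.10 (SE) with a 95% confidence interval from -0.36 to 0.05. Kcnma1, the pore of the same channel, had a log2 fold change of 0.08 with an interval from -0.14 to 0.30. For Kcnj9 the log2 fold change was -0.10 with an interval from -0.26 to 0.05, and it was -0.03 without the 6 libraries of high summed FPKM. For Kcnj3 it was -0.04 with an interval from -0.22 to 0.14. Kcnj6 was at 0.09, with an interval from -0.21 to 0.38, and at -0.04 without those libraries. For Kcnn2 the value was -0.03 with an interval from -0.19 to 0.14, which as a ratio runs from 0.877 to 1.10. Kcnn1 was at -0.03 and Kcnn3 at 0.11 on the same scale. The intervals of all 9 genes together ran from a ratio of 0.768 to a ratio of 1.33, the outer bounds being those of Kcnj5 and Kcnn3.

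The second comparison, EtOH-UA against EtOH mice, asks what urolithin A changed during ethanol feeding. Again 0 of 9 members passed at an adjusted p under 0.05 and 0 at an unadjusted p under 0.05 with limma, beside 0% and 3.27% of all genes. The log2 fold changes ran from -0.24 to 0.19 with a median of -0.01, and 4 of 9 were above 0, where 51.2% of all genes were. The smallest exact permutation p was 0.214, for Kcnn3, with means of 3.03 FPKM ± 0.527 (SD, n = 7) in the EtOH group and 2.596 FPKM ± 0.669 (SD, n = 7) in the EtOH-UA group. Its log2 fold change was -0.24, with an interval from -0.57 to 0.09, and -0.14 without the 6 libraries. Kcnma1 was at -0.15 with an interval from -0.39 to 0.08 (-0.10 without the 6 libraries), and the mean level was 32.4 FPKM ± 5.59 (SD, n = 7) against 35.98 FPKM ± 5.70 (SD, n = 7). Kcnn1, with a log2 fold change of 0.001 and an interval from -0.19 to 0.19, was the member closest to 0. The widest interval was that of Kcnj5, from a ratio of 0.855 to a ratio of 1.53. This gene rests on the fewest fragments. Without the 6 libraries of high summed FPKM the log2 fold change of Kcnj6 turned from -0.08 to 0.12, that of Kcnmb4 from 0.05 to -0.05 and that of Kcnj5 from 0.19 to -0.01, so the directions of these differences, none of which passed, depended on those libraries.

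The third comparison set EtOH-UA mice against Ctrl mice. With limma, 0 of 9 members had an adjusted and 0 an unadjusted p under 0.05, beside 0% and 3.08% of all genes. The log2 fold changes ran from -0.13 to 0.21 with a median of -0.05, and 3 of 9 were above 0, where 51.2% of all genes were. The smallest exact permutation p was 0.185, for Kcnj9, at 30.4 FPKM ± 2.36 (SD, n = 7) and 33.1 FPKM ± 4.29 (SD, n = 9). The log2 fold change of Kcnj9 was -0.11, and -0.01 without the 6 libraries. For Kcnj5 the same values were 0.21 and -0.03, and for Kcnn3 they were -0.13 and 0.001. Kcnj6 had a log2 fold change of 0.0001 with an interval from -0.29 to 0.29. The comparisons share mice (the EtOH group is in the first and the second, the Ctrl group in the first and the third), so their values are not independent. Across all genes the smallest adjusted p in the 3 comparisons was 0.310, 0.507 and 0.297, so no gene passed in any of them.

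**Figure D2:**
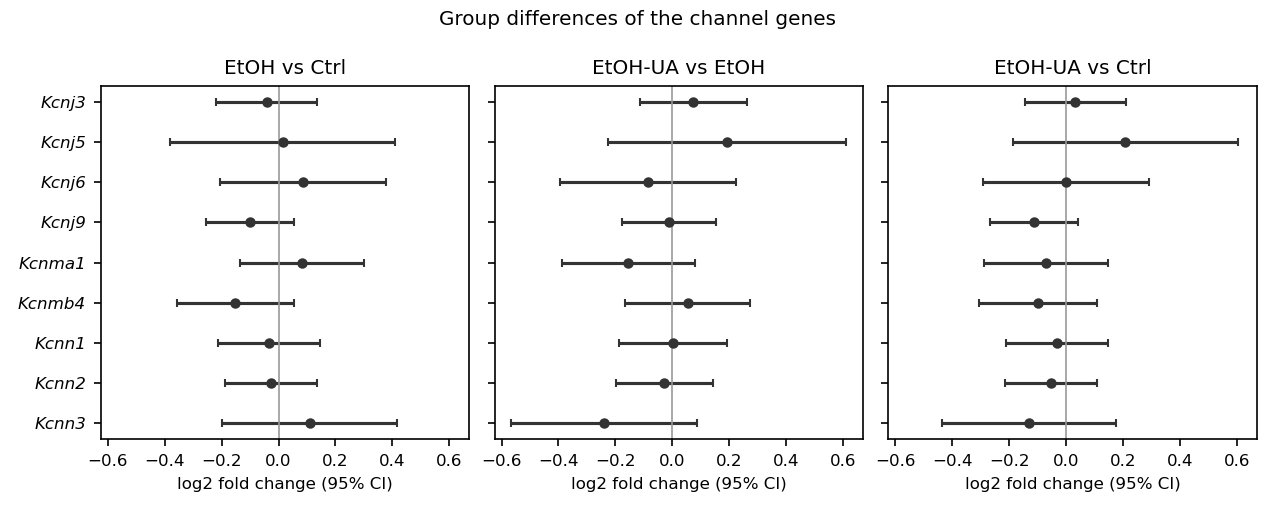
Log2 fold changes of the 9 channel genes in the 3 comparisons, from limma on log2(FPKM + 0.1) over 23 mice; bars are 95% confidence intervals. Every interval covers 0, and the widest are those of Kcnj5.

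Subunit ratios within a library do not depend on the scaling between libraries, and they bear on which channels could assemble. Of 7 ratios in 3 comparisons, 21 in all, 0 passed after adjustment by exact permutation tests, and the smallest raw exact p was 0.163, for Kcnj3 over Kcnj6 in EtOH-UA against EtOH mice. This ratio ranged from 2.13 to 2.66 in the EtOH group (median 2.35) and from 2.13 to 3.34 in the EtOH-UA group (median 2.48). On the log2 scale its mean was 1.22 ± 0.11 (SD, n = 7) and 1.38 ± 0.25 (SD, n = 7), with an adjusted exact p of 0.823. The difference was 0.16 on that scale, and 0.02 without the 6 libraries. For the BK channel, the log2 ratio of Kcnmb4 over Kcnma1 was 0.01 ± 0.29 (SD, n = 9) in the Ctrl group, -0.22 ± 0.39 (SD, n = 7) in the EtOH group and -0.01 ± 0.54 (SD, n = 7) in the EtOH-UA group. The log2 difference of EtOH from Ctrl mice was -0.24, with a raw exact permutation p of 0.184. Without the 6 libraries it was -0.20, with a raw exact permutation p of 0.0693 and an adjusted one of 0.929. Of the 21 differences, 7 turned direction without those libraries and 6 kept it but moved by over 1.5 times, and 0 passed.

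The genes that work with these channels were described from 5 lists of 57 genes, 55 of which were tested. None passed at an adjusted p under 0.05 in any comparison with limma, and 1 of 55 (1.82%) had an unadjusted p under 0.05 in each comparison, below the 3.05% to 3.27% of all genes. The list of 16 G protein subunits and inhibitory receptors that open GIRK channels had median log2 fold changes of -0.01 in EtOH against Ctrl mice, -0.01 in EtOH-UA against EtOH mice and -0.05 in EtOH-UA against Ctrl mice. In this list Gabbr2, the GABA-B receptor subunit that couples to G proteins, was at a mean of 54.3 FPKM ± 2.23 (SD, n = 7) with ethanol alone and of 49.7 FPKM ± 5.09 (SD, n = 7) with urolithin A. Its log2 fold change was -0.13, with an exact permutation p of 0.0379 and an adjusted p of 0.900 with limma. Gnai3, an inhibitory alpha subunit, was at 0.07 in both comparisons with Ctrl mice. The 15 regulators of GIRK signaling, which are RGS and KCTD proteins, trafficking factors and lipid enzymes, had medians of -0.02, -0.003 and -0.01 in the same order. Pip5k1c, which makes the lipid PIP2 that GIRK channels need, was at 80.2 FPKM ± 4.37 (SD, n = 9) in the Ctrl group and 75.3 FPKM ± 2.63 (SD, n = 7) in the EtOH-UA group, and 0 of 7 EtOH-UA mice were above the Ctrl median. Its exact permutation p was 0.0155 and its adjusted p was 0.999 with limma. Rgs4, which shortens the G protein signal, had a log2 fold change of -0.17 in the same comparison, and Rgs2 was at 0.08 there and at 0.13 in EtOH-UA against EtOH mice. Kctd16 and Kctd8, auxiliary subunits of the GABA-B receptor, were at 0.20 and -0.18 in EtOH against Ctrl mice. None of these differences passed the adjusted test.

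Of the 12 partners of BK channels, 11 were tested. Their median log2 fold change was 0.07 in EtOH against Ctrl mice, -0.15 in EtOH-UA against EtOH mice and -0.05 in EtOH-UA against Ctrl mice. In EtOH against Ctrl mice 8 of 11 were higher, where 48.6% of all genes were. In EtOH-UA against EtOH mice 3 of 11 were higher, where 51.2% of all genes were, and both comparisons hold the same EtOH mice. Cacna1a, the P/Q-type calcium channel whose calcium opens BK channels, was at 19.6 FPKM ± 3.54 (SD, n = 7) in EtOH-UA and 22.0 FPKM ± 0.787 (SD, n = 7) in EtOH mice, with an exact permutation p of 0.113. Kcnmb1, the beta-1 subunit of smooth muscle, was the BK partner with an unadjusted p under 0.05, in EtOH against Ctrl mice (log2 fold change 0.45, adjusted p = 0.999 with limma). It was named after its values were seen, and at 0.292 FPKM it rests on few fragments. Cereblon, encoded by Crbn, which holds BK channels back from the surface, was at a mean of 29.0 FPKM and differed by 0.02 on the log2 scale between EtOH-UA and EtOH mice. The 10 SK partners, which are calmodulins, subunits of the kinase CK2 and the phosphatase PP2A, and anchoring proteins, had medians of -0.04, 0.04 and 0.01. Of these, Mpp2, a scaffold of SK2 in the spine, was at 38.6 FPKM ± 1.497 (SD, n = 9) in the Ctrl group and 37.0 FPKM ± 1.96 (SD, n = 7) in the EtOH group (exact permutation p = 0.0801). Csnk2b, the regulatory subunit of CK2, was at 0.10 on the log2 scale in EtOH-UA against EtOH mice. The 4 related channel genes outside the set, Kcnt1, Kcnt2, Kcnu1 and Kcnn4, had medians of 0.04, -0.05 and 0.02 over the 3 that were tested, and Kcnn4, which encodes the intermediate-conductance channel of blood cells, was at 0.0809 FPKM.

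The SD within groups on the log2 scale was 0.31 for Kcnn3, 0.30 for Kcnj6, 0.22 for Kcnma1, 0.21 for Kcnmb4, 0.18 for Kcnj3, 0.17 for Kcnn1, 0.16 for Kcnn2 and 0.15 for Kcnj9, beside a median of 0.16 over the 12904 genes whose mean reached 1 FPKM. Kcnj5 was at 0.37. Part of this variation went with the library. In the 6 libraries with a summed FPKM over 350000, Kcnmb4 was at 38.2 to 43.3 FPKM (median 39.5), and in the other 17 it was at 25.6 to 32.9 FPKM (median 29.7). These ranges did not overlap, but the share of all genes that separate in this way was not computed. Kcnj6 went the other way, with 12.5 to 17.9 FPKM (median 14.5) in the 6 libraries and 15.6 to 24.6 FPKM (median 21.6) in the 17. Kcnma1 was at 22.5 to 31.3 FPKM (median 28.9) in the 6 and at 29.5 to 42.5 FPKM (median 37.3) in the 17. Kcnn1 was at 5.52 to 6.59 FPKM in the 6 and at 4.50 to 6.32 FPKM in the 17. Both BK subunits thus moved in opposite directions between these sets of libraries, which were formed after the sums had been seen and are no groups of the study.

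The 6 libraries also had the lowest slopes of expression on transcript length. This slope is the change of a library's log2 level, relative to the mean of all libraries, per doubling of transcript length, and it ran from -0.181 to 0.064 over the 23 libraries. Kcnmb4 has 1 coding transcript of 1367 bases in GENCODE release M21. The 31 coding transcripts of Kcnma1 run from 890 to 12094 bases (median 3498). Those of Kcnn1, whose median level like that of Kcnmb4 was higher in the 6 libraries, have a median of 2528 bases. Over all 23 libraries 6 of 9 members passed with this slope at an adjusted permutation p under 0.05. The slope was itself fitted on the genes of the table, and the share of all genes that pass with it was not computed. The count therefore cannot be read as a trait of the channel genes. No pooled r is given, since the 6 libraries form a cluster of their own. Within the 17 libraries, Kcnma1 had a Pearson r of 0.55 with the slope, Kcnj3 of 0.59, Kcnj6 of 0.40 and Kcnmb4 of -0.43, and none of these passed after adjustment (adjusted permutation p = 0.190, 0.153, 0.400 and 0.379). The part of transcript length in the group comparisons was measured by adding the slope to the model. With it, the log2 fold change of Kcnmb4 in EtOH against Ctrl mice was -0.09, and 0 members passed in any comparison. The cause of the differences between libraries was not tested.

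**Figure D3:**
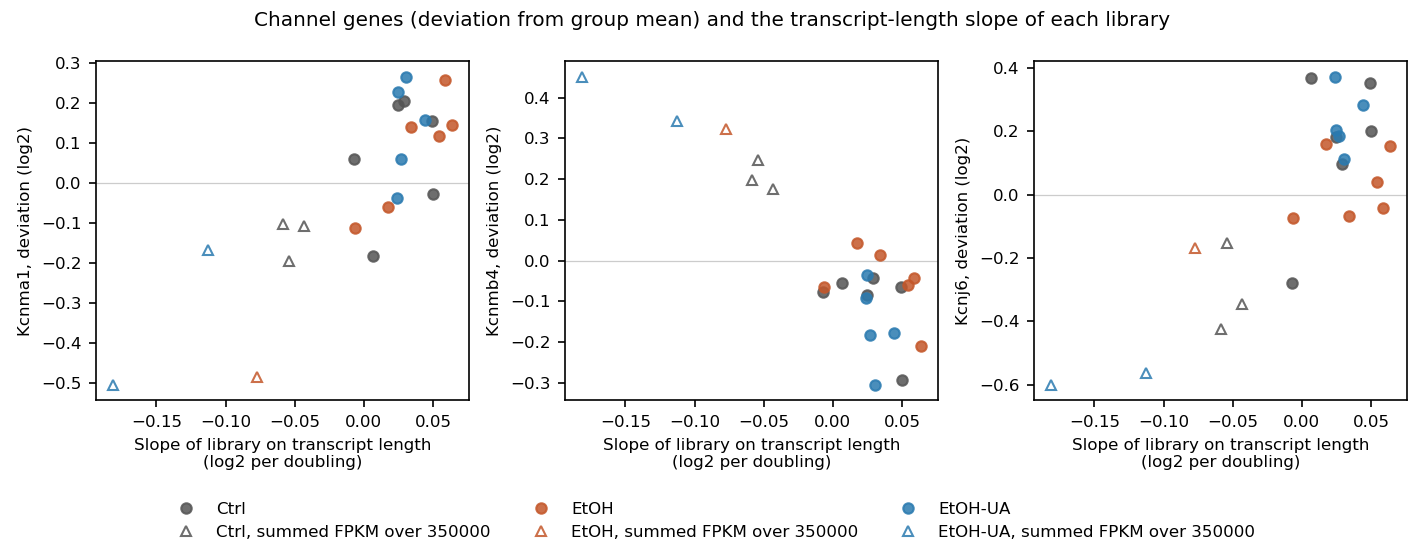
Deviation of Kcnma1, Kcnmb4 and Kcnj6 from the group mean (vertical axes, log2 scale) against the slope of each library on transcript length (horizontal axes, log2 per doubling). Each point is 1 mouse, colored by group, and open triangles are the 6 libraries with a summed FPKM over 350000, in which Kcnmb4 is highest and the slope is lowest.

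Within groups, some pairs of channel genes varied together. Deviations from group means were correlated over the 36 pairs, with 100000 permutations. Over all 23 mice 14 pairs passed at an adjusted permutation p under 0.05, of which 9 also passed by Spearman's rho, but the 6 libraries that stand apart enter these values. The share of pairs among all genes that would pass was not computed, so the count cannot be read as a trait of the channel genes. Over the 17 other libraries 1 pair passed. This was Kcnj6 with Kcnn3, with r = -0.78, rho = -0.74 and an adjusted permutation p of 0.00864, and r was -0.69 without the 2 mice farthest from the median. The next was Kcnj9 with Kcnn3, with r = 0.68 and rho = 0.77 (adjusted permutation p = 0.0563 for r and 0.0184 for rho). Over all 23 mice the r of this pair was 0.59 (adjusted permutation p = 0.0124), whereas that of Kcnj6 with Kcnn3 was 0.34 (adjusted permutation p = 0.235) and so had the opposite sign. Kcnmb4 with Kcnn2 had r = 0.61 over the 17 libraries (adjusted permutation p = 0.111). The subunit genes of the BK channel, Kcnma1 and Kcnmb4, had r = -0.76 over 23 mice and -0.08 over the 17. With the length slope held constant their r over 23 mice was 0.21. In the same way Kcnj3 with Kcnj6 went from 0.63 to 0.02, whereas Kcnma1 with Kcnn3 went from 0.80 to 0.63. The r of Kcnj6 with Kcnma1 turned sign, from 0.54 to -0.72.

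**Figure D4:**
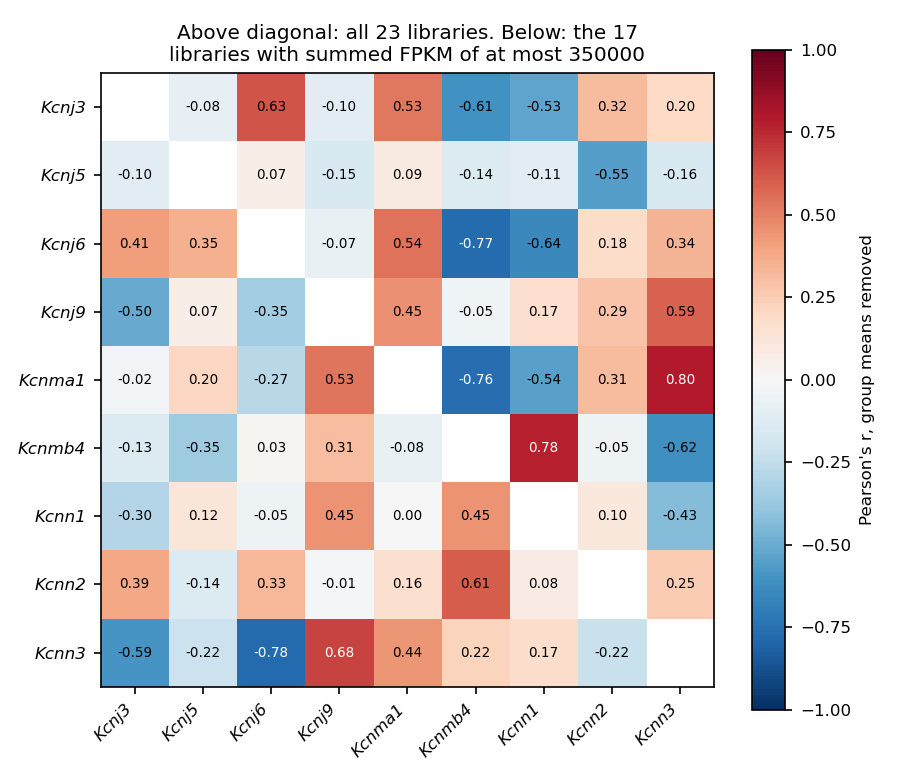
Pearson's r of deviations from group means on the log2 scale between the 9 channel genes, with all 23 libraries above the diagonal and the 17 libraries with a summed FPKM of at most 350000 below it. Kcnmb4 with Kcnma1 goes from -0.76 to -0.08, and Kcnj6 with Kcnn3 from 0.34 to -0.78.

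The 250 bases before the start of transcription are shown for Kcnj9 and Kcnn3, which varied together, and for Kcnj6, which varied against Kcnn3. RefSeq windows on GRCm38.p6 were found for 8 of the 9 members, and those printed are the 3 that lie wholly outside the annotated gene. Capitals mark matches, on either strand, to the TATA box (TATAAA), the GC box (GGGCGG) and the cyclic AMP response element CRE (TGACGTCA).
Kcnj9 (chr1:172329323-172329572, minus strand): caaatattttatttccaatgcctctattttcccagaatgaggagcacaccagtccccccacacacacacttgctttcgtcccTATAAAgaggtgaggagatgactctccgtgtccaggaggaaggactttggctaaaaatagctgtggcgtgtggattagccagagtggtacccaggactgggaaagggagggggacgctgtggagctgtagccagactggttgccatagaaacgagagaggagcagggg
Kcnn3 (chr3:89519914-89520163, plus strand): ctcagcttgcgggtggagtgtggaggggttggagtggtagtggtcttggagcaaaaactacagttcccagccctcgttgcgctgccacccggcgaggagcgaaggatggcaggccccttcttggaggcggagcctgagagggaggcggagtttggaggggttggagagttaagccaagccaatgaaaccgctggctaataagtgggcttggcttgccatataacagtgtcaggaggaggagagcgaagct
Kcnj6 (chr16:94997697-94997946, minus strand): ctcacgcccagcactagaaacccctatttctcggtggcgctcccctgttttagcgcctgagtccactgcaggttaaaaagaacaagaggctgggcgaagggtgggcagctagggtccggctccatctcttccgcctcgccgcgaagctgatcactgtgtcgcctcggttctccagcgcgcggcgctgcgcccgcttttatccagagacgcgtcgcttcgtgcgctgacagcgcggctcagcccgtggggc
Kcnj9 had 1 match to the letters of the TATA box, which begins 168 bases before the annotated start. No GENCODE transcript of Kcnj9 holds the first bases after this start, and whether the match acts as a TATA box was not tested. The windows printed for Kcnn3 and Kcnj6 had no match to the 3 motifs. A second annotated start of Kcnj6, whose window lies inside the gene (chr16:94856691-94856940), had 1 GC box. Of 32851 mouse windows of the same length, 12.4% held a TATA box, 32.7% a GC box and 1.55% a CRE. The G and C content was 52.0% for Kcnj9, 58.8% for Kcnn3 and 64.0% for Kcnj6, beside a median of 52.4% over all windows.

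Each channel gene was then set against markers of hippocampal cell types. A marker score is the mean deviation from the group means over the genes of a list, on the log2 scale. Kcnj6 rose with the score of dentate granule neurons, formed from Prox1, Dsp, C1ql2, Lct, Stxbp6 and Plk5. Over the 17 libraries r was 0.92 and rho 0.80 (adjusted permutation p = 0.00063 for r), and r was 0.76 without the 2 farthest mice. A single Ctrl mouse had the lowest dentate score, with a summed level of the 6 markers of 47.0 FPKM beside a Ctrl median of 90.8 FPKM. Over all 23 mice r was 0.59 (adjusted permutation p = 0.0175), and 0.75 with the length slope held constant. An EtOH-UA mouse outside the 17 libraries went the other way. Of all 23 mice it had the highest summed dentate granule markers (140 FPKM) and the lowest Kcnj6 level (12.5 FPKM). Of the 6 markers, Prox1, the transcription factor of granule cells, had r = 0.72 with Kcnj6 over 23 mice, Lct 0.70, Dsp 0.62, Stxbp6 0.58, Plk5 0.37 and C1ql2 -0.003. Kcnj6 went against the score of all neurons, with r = -0.58 over 23 mice (adjusted permutation p = 0.0214) and -0.69 over the 17 libraries (adjusted permutation p = 0.0504).

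Kcnn3 went against the dentate granule score. Over the 17 libraries its r with this score was -0.84 and rho -0.88 (adjusted permutation p = 0.00063 for r), and -0.93 without the 2 farthest mice. It rose with the score of inhibitory interneurons, formed from Gad1, Gad2, Slc32a1, Pvalb, Sst, Vip, Npy and Lhx6, with r = 0.81 and rho = 0.78 (adjusted permutation p = 0.00714 for r). Over all 23 mice these values were -0.39 and 0.38, and neither passed (adjusted permutation p = 0.169 and 0.191). With the length slope held constant they were -0.72 and 0.66. Kcnj9 had r = 0.57 with the interneuron score over 23 mice (adjusted permutation p = 0.0214) and 0.68 over the 17 (adjusted permutation p = 0.0839). Its rho was 0.58 over the 23 and 0.79 over the 17, and both passed (adjusted permutation p = 0.0283 and 0.0103). With the dentate granule score Kcnj9 had a rho of -0.58 and -0.79 in the same order (adjusted permutation p = 0.0283 and 0.0103), whereas its r of -0.35 and -0.45 did not pass (adjusted permutation p = 0.231 and 0.357). Relations of the 9 members with the 13 marker lists and the length slope numbered 126 over the 17 libraries. Over the 23 they also took in the summed FPKM and numbered 135. By r, 3 of 126 passed over the 17 libraries and 33 of 135 over the 23, of which 6 were with the length slope. The dentate relation of Kcnj6 was the 1 that passed in both. By rho, 5 and 24 passed, and 3 in both, which were this relation and those of Kcnj9 with the interneuron and dentate granule scores. The share of all genes that pass with these measures was not computed. These counts therefore cannot be read as a trait of the channel genes.

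Kcnn2 followed the CA1 score. Over 23 mice its r was 0.86 with CA1 pyramidal neurons (rho 0.63) and -0.85 with CA3 pyramidal neurons (rho -0.70), with adjusted permutation p-values of 0.0003 and 0.000169 for r. Without the 2 farthest mice the values were 0.62 and -0.68, and over the 17 libraries they were 0.63 and -0.66, where neither passed (adjusted permutation p = 0.115 and 0.0983). The size of r therefore rests in part on 1 EtOH-UA mouse, which had the lowest Kcnn2 level (17.8 FPKM), the lowest summed CA1 markers (89.2 FPKM beside a group median of 162 FPKM) and the highest summed CA3 markers (184 FPKM beside a group median of 108 FPKM). Of all 23 mice, the same one had the highest summed FPKM and the highest summed choroid plexus and dentate granule markers. It also had the lowest levels of Kcnj6, Kcnj9, Kcnma1 and Kcnn3. Among the CA1 markers, Pou3f1 had r = 0.90 with Kcnn2, Fibcd1 0.83, Mpped1 0.78, Man1a 0.70 and Wfs1 -0.07. Whether the share of each subfield in the dissected tissue set these relations was not tested.

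**Figure D5:**
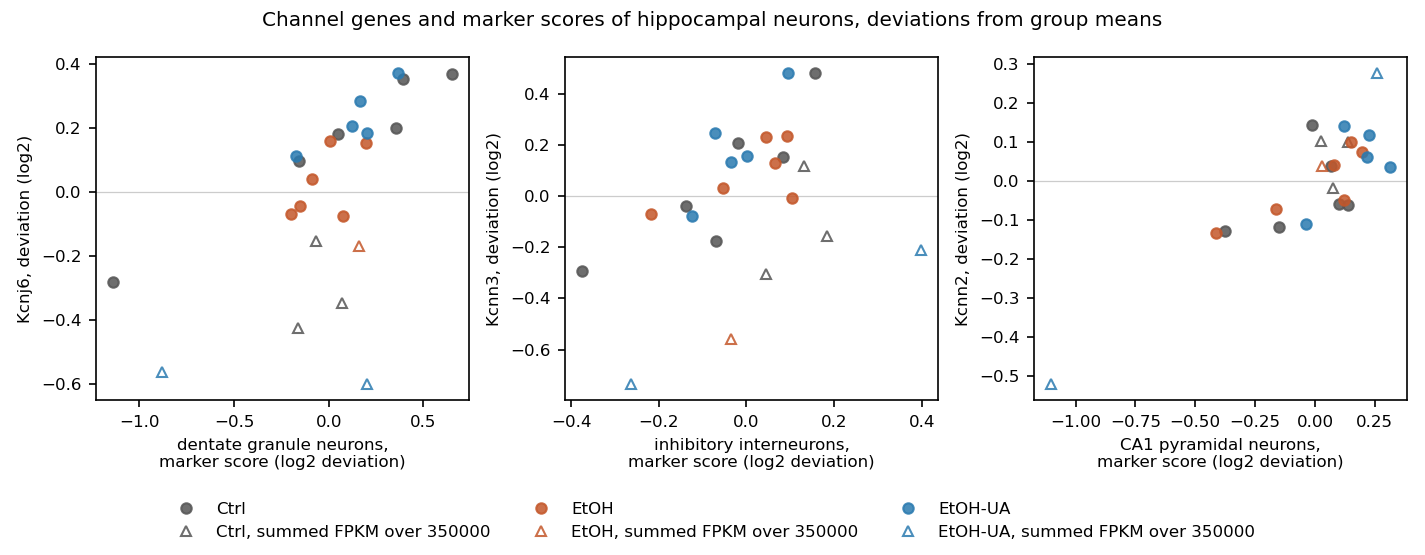
Deviation from the group mean (vertical axes, log2 scale) of Kcnj6 against the dentate granule score, Kcnn3 against the interneuron score and Kcnn2 against the CA1 score (horizontal axes, log2 scale). Each point is 1 mouse, colored by group, and open triangles are the 6 libraries with a summed FPKM over 350000; the filled points have r = 0.92, 0.81 and 0.63.

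The levels of these markers overlapped between the groups. Summed dentate granule markers ranged from 47.0 to 133 FPKM in Ctrl mice, from 83.5 to 109 FPKM in EtOH mice and from 68.1 to 140 FPKM in EtOH-UA mice. Summed interneuron markers, of which Sst (186 FPKM) and Gad1 (102 FPKM) were the most abundant, ranged from 308 to 517 FPKM, from 336 to 448 FPKM and from 334 to 528 FPKM in the same order. Summed CA1 markers, led by Mpped1 and Wfs1, ranged from 121 to 178 FPKM, from 120 to 165 FPKM and from 89.2 to 188 FPKM, and CA3 markers, led by Bok and Cpne4, from 91.5 to 135 FPKM, from 87.4 to 130 FPKM and from 91.0 to 184 FPKM.

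The genes whose deviations were most like those of each member were listed as a description, over 23 mice and among genes whose mean reached 1 FPKM, with no test. For Kcnj3 the closest was Rgs7bp, an anchor of RGS proteins at the membrane, with r = 0.94, followed by Kcnd2, an A-type potassium channel, at 0.93. For Kcnj6 it was Plxna4 at 0.96 and for Kcnma1 Myo5a, a myosin motor, at 0.97. These 3 members all had lower medians in the libraries of high summed FPKM, with ranges that overlapped those of the other libraries. For Kcnmb4, which was higher there, the closest genes were Rps3a1, a ribosomal protein gene, at 0.97, Ndufs3 of respiratory complex I at 0.97 and Higd2a at 0.96. Kcnn2 was closest to Gpr161 at 0.91 and to Pou3f1 at 0.90, a gene that is also in the CA1 list. For Kcnn3 it was Ankrd50 at 0.91, for Kcnn1 Zfp444 at 0.88, for Kcnj9 Cit at 0.87 and for Kcnj5 Ccdc191 at 0.73.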

How the data were processed

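Hippocampal RNA of 23 mice was sequenced, and the expression table deposited by the authors was analyzed from FPKM onward. According to the methods, the authors enriched poly(A)+ RNA (the labels name total RNA), filtered reads with SOAPnuke, aligned them to mm10 with Bowtie2 and quantified genes with RSEM, and the FPKM were deposited to 2 decimals. The submitters' processing notes give Bowtie2 2.2.5, RSEM 1.2.8 and HISAT2 2.1.0. Since FPKM share out 1 library total, reads lost to a library's few abundant genes or to short transcripts shift all values of that library. Alternative transcripts of Kcnma1 are pooled in 1 value.

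The name of each column gave its group, and 0 columns stayed without one. The analysis scale was log2(FPKM + 0.1), on which fold changes of low genes are understated. All 15986 genes whose mean reached 0.1 FPKM, the 9 members included, entered a limma fit (version 3.58.1, R 4.3.3, 3 groups, trended eBayes, no covariate), with Benjamini-Hochberg adjustment over all of them and a threshold of 0.05. The fit was tested on simulated data. This fit replaced the count test of the methods, since FPKM are not counts. Two-sided exact permutation tests served for single genes and ratios, with 3432 splits between the 2 ethanol groups and 11440 against Ctrl mice. Correlations used 100000 permutations. The labels do not say that libraries of a group came from separate extractions, so p-values measure the spread between these samples. Depth was estimated from the spacing of low values, and counting errors cover counting only.

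All 9 members were named by rule. From the partner lists, genes past the threshold and the 2 smallest p-values in each direction among genes whose mean reached 1 FPKM were named, as likeness the 3 genes of highest r, and from the 13 marker lists the 2 most abundant genes. The value of 1 CA1 marker and the level of the oligodendrocyte list are not reported here. The members and lists were chosen with earlier results of these data known. The relations with markers and the length slope, and all analyses of the 17 libraries, were chosen after seeing the data. Alternatives were pseudocounts of 0.01 and 1, filters, scalings, weights, only the groups compared and each mouse left out. Promoter windows came from RefSeq (GRCm38.p6) and transcript lengths from GENCODE release M21, found for 97.4% of the genes whose mean reached 1 FPKM.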

Additional observations from a re-analysis of the deposited data

Results flagged for a closer look

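Of 27 sets of values (9 genes in 3 groups), 1 held a sample far from the others on the analysis scale, where chance gives about 1 in 20. Kcnn3 was lowest in 1 EtOH mouse, at 2.0 FPKM, with the next mouse at 2.85 FPKM and the highest at 3.54 FPKM. On the analysis scale, which is logarithmic, the gap took up 0.618 of the range of the group. In FPKM the gap took up a smaller part of the range. The library of this mouse was the EtOH library with a summed FPKM over 350000 (366930). With the 6 libraries over 350000 left out, 0 of the 9 genes passed in any comparison.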

How the results depend on the processing

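No paired analysis was possible because the columns carry no replicate numbers of the labels. The count of members called was 0 under every alternative run, and the smallest adjusted p of a member was 0.552 with limma and of a ratio 0.327, by exact permutation and adjusted. Of 681 alternative values of the member fold changes 616 kept their direction, and of 385 for the ratios 352 did. The medians of the members and partners moved by less than the spread between mice. The number of all genes called rose from 0 to 1 in EtOH against Ctrl mice with array quality weights and with the length slope as covariate, which was Cd24a both times. Mice were numbered by column order within a group, as names only. Leaving out each in turn gave counts from 0 to 1 in each comparison, and the genes called were LOC115488002 without Ctrl replicate 9, and LOC101055676 without EtOH-UA replicate 6 or 7 in both comparisons of that group. None of these is a channel gene.

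The values that turned direction under any alternative were at most 0.207 in size as reported for fold changes and 0.186 for ratios (log2). In EtOH against Ctrl mice, with quantile normalization, Kcnj5 was at -0.0733. With the length slope as covariate, Kcnj6 was at -0.00156 and Kcnn1 at 0.00874. With the 6 libraries of summed FPKM over 350000 left out, Kcnj5 was at -0.0235, Kcnj6 at -0.0404, Kcnn1 at 0.000194, Kcnj3/Kcnj6 at 0.0199, Kcnj9/Kcnj6 at 0.00949 and Kcnn1/Kcnn2 at 0.00213. In EtOH-UA against EtOH mice, with upper-quartile scaling, Kcnn1 was at -0.0192. With array quality weights, Kcnj6 was at 0.0848, Kcnmb4 at -0.0423, Kcnn1 at -0.0591 and Kcnn2 at 0.0132. With the length slope as covariate, Kcnj6 was at 0.085, Kcnj9 at 0.00754, Kcnmb4 at -0.0761, Kcnn1 at -0.0806 and Kcnn2 at 0.0037. With the 6 libraries of summed FPKM over 350000 left out, Kcnj5 was at -0.0088, Kcnj6 at 0.119, Kcnj9 at 0.0177, Kcnmb4 at -0.0517, Kcnn1 at -0.0679, Kcnn2 at 0.0274, Kcnj9/Kcnj6 at -0.101 and Kcnn1/Kcnn2 at -0.0953. In EtOH-UA against Ctrl mice, with a pseudocount of 0.01, Kcnj6 was at -3.16e-05. With upper-quartile scaling, Kcnj6 was at -0.00645. With quantile normalization, Kcnj6 was at -0.00469. With array quality weights, Kcnma1 was at 0.0299. With the 6 libraries of summed FPKM over 350000 left out, Kcnj5 was at -0.0323, Kcnn2 at 0.0255, Kcnn3 at 0.00129, Kcnn1/Kcnn2 at -0.0932 and Kcnn3/Kcnn1 at 0.069. The cause was not tested.

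Leaving out each mouse in turn gave ranges that crossed 0. In EtOH against Ctrl mice they ran from -0.0697 to 0.000306 for Kcnj3, from -0.0929 to 0.103 for Kcnj5, from -0.0697 to 0.00214 for Kcnn1 and from -0.0407 to 0.0362 for Kcnn1/Kcnn2. In EtOH-UA against EtOH mice they ran from -0.147 to 0.0151 for Kcnj6, from -0.0396 to 0.0227 for Kcnj9, from -0.022 to 0.107 for Kcnmb4, from -0.061 to 0.0376 for Kcnn1, from -0.0741 to 0.0593 for Kcnn2, from -0.0152 to 0.134 for Kcnj9/Kcnj6 and from -0.0851 to 0.077 for Kcnn1/Kcnn2. In EtOH-UA against Ctrl mice they ran from -0.0127 to 0.0832 for Kcnj3, from -0.0622 to 0.1001 for Kcnj6, from -0.115 to 0.013 for Kcnma1, from -0.0936 to 0.00269 for Kcnn1, from -0.101 to 0.0326 for Kcnn2, from -0.0273 to 0.0961 for Kcnj3/Kcnj6, from -0.187 to 0.0671 for Kcnmb4/Kcnma1, from -0.0911 to 0.0711 for Kcnn1/Kcnn2, from -0.208 to 0.0501 for Kcnn3/Kcnn1 and from -0.176 to 0.00484 for Kcnn3/Kcnn2. Counts of member pairs that passed over 23 mice were 14 with a pseudocount of 1 and 15 with upper-quartile scaling. Depth limits Kcnj5 most.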

Other observations

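Some channel genes also went with markers of cells other than neurons. Kcnn2 had r = -0.62 with the choroid plexus score, led by Ttr, over 23 mice (adjusted permutation p = 0.00506), -0.52 without the 2 farthest mice and -0.46 over the 17 libraries (adjusted permutation p = 0.337). Kcnj5 had r = 0.58 with the same score (adjusted permutation p = 0.0201) and 0.51 over the 17 libraries (adjusted permutation p = 0.255), at a level of few fragments. Kcnma1 had r = -0.71 with the endothelial score, led by Ly6c1 and Slco1a4, over 23 mice (adjusted permutation p = 0.00184) and -0.46 over the 17 libraries (adjusted permutation p = 0.353). For Kcnn3 these values were -0.62 (adjusted permutation p = 0.00939) and -0.38 (adjusted permutation p = 0.400). With the microglial score, Kcnma1 had r = -0.74, Kcnj3 -0.62, Kcnj6 -0.59 and Kcnmb4 0.64 over 23 mice (adjusted permutation p from 0.00135 to 0.0175). Over the 17 libraries they were at -0.44, -0.26, -0.08 and -0.02, and none passed (adjusted permutation p from 0.364 to 0.973). The part of these cells in the channel levels was not tested.

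Summed levels of other marker lists overlapped between groups. Neuronal markers ranged from 2555 to 2900 FPKM in Ctrl mice, from 2508 to 2739 FPKM in EtOH mice and from 2439 to 2749 FPKM in EtOH-UA mice. In the same order, astrocyte markers (Aldoc, Slc1a3) ranged from 581 to 684, from 606 to 696 and from 589 to 723 FPKM. Precursors of oligodendrocytes (Pdgfra, Olig2) ranged from 30.6 to 38.8, from 31.6 to 39.7 and from 30.2 to 38.4 FPKM. Microglial markers (C1qa, Csf1r) ranged from 84.3 to 109, from 75.9 to 105 and from 82.2 to 119 FPKM. Endothelial markers ranged from 74.4 to 93.6, from 72.5 to 97.6 and from 81.8 to 107 FPKM, and mural markers (Rgs5, Pdgfrb) from 37.0 to 49.2, from 33.7 to 43.5 and from 36.3 to 48.7 FPKM. Markers of the thalamus and other tissue beside the hippocampus (Trpc4, Prkcd) ranged from 33.9 to 43.9, from 37.8 to 45.6 and from 32.3 to 49.1 FPKM.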
